A study of Mus musculus with 9 samples.

Results

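The Prss genes, which encode members and relatives of the trypsin-like serine protease family, were followed through 9 mouse testes of 3 Piwil4 genotypes. Every gene whose symbol is Prss followed by a digit was taken, which gave 39 of the 22337 genes measured. For description the 39 were divided by what their products are known for. A list of 15 genes held paralogs known from the testis and sperm, a list of 20 held genes known from somatic tissues such as pancreas, gut, ovary and white blood cells, and 4 genes (Prss38, Prss47, Prss48 and Prss58) were placed on neither list.

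Trypsin-like serine proteases cut proteins after basic residues with a catalytic triad of histidine, aspartate and serine, and several family members have lost part of that triad and no longer cut. Many of the testis paralogs lie in gene clusters and are made by spermatocytes and spermatids, where their products are held in the acrosome or anchored on the germ cell surface. Some are needed for the processing of ADAM3, a sperm surface protein without which sperm cannot pass from the uterus into the oviduct.

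The study asked how a substitution in the PAZ domain of PIWIL4, a nuclear PIWI protein of the male germ line, affects the first wave of spermatogenesis. RNA was sequenced from whole testes of mice 3 weeks old, an age at which the first germ cells to enter meiosis are becoming round spermatids. The groups were wild-type, Piwil4 WT/R264W (the R264W change on a single allele) and Piwil4 R264W/R264W (on both alleles), with 3 libraries each. The mutation was knocked into C57BL/6 zygotes with CRISPR-Cas9, and the labels name no treatment. The labels number the libraries but do not say that each came from a separate animal, so p-values measure the spread between these libraries. Total counts ran from 17964135 to 24279056 per library, and 3 counts, the limit that a count of 0 allows, correspond to between 0.122 and 0.172 CPM (counts scaled to a common library total with TMM factors, the scale of all CPM values here). Piwil4 itself had between 18 and 46 counts in each library, and its level does not check a point mutation.

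The libraries differed in how far the first wave had gone. A round spermatid score was taken from 20 genes expressed in these cells, such as Acrv1, Tssk1 and Prm1, with no Prss gene among them. It averages their log2 CPM and ran from 1.43 to 6.14. From the lowest to the highest, the testes were Piwil4 WT/R264W replicate 3, wild-type replicate 3, Piwil4 R264W/R264W replicate 1, wild-type replicate 2, Piwil4 WT/R264W replicate 2, Piwil4 R264W/R264W replicate 2, Piwil4 WT/R264W replicate 1, Piwil4 R264W/R264W replicate 3 and wild-type replicate 1. Values below are given in this order where 9 are listed. The genotypes overlapped: wild-type testes scored 1.97, 3.07 and 6.14, those with a single R264W allele 1.43, 3.99 and 5.23, and those with both 2.93, 4.07 and 5.99. The first principal component, taken over the genes that passed a filter on low counts, held 66.4% of the variance. Along it the testes lay at 75.86, 60.8, 28.21, 27.08, -4.89, -8.06, -36.39, -67.09 and -75.52. In whole tissue, fewer cells of a type and less RNA per cell cannot be told apart.

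Of the 39 Prss genes, 28 had more than 3 counts in at least 1 testis and 23 had a mean of at least 0.5 FPKM (fragments scaled for transcript length and library depth, a level that can be compared between genes). The summed FPKM of the family ran from 264.6 in the testis with the lowest score to 427.9 in Piwil4 R264W/R264W replicate 3, and the testis paralogs made up between 80.1% and 87.5% of it. Prss39 and Prss21 had the highest mean levels, at 71.5 and 37.8 FPKM. Prss39 encodes an acrosomal protease, and Prss21 encodes testisin, which is anchored on the sperm surface. A group of genes from a single cluster followed, with mean levels of 32.3 FPKM for Prss42, 29.7 for Prss50, 27.1 for Prss45, 24.9 for Prss46, 17.4 for Prss44 and 12.03 for Prss43. The only gene of the somatic list above 10 FPKM was Prss35, at 23.2 FPKM, which encodes a secreted protein known from the ovary that lacks the catalytic serine. Prss54 averaged 11.6 FPKM, Prss40 9.30, Prss47 7.03, Prss56 5.67, Prss48 5.06, Prss38 4.90, Prss37 3.74, Prss23 and Prss55 3.65 each, Prss41 3.27, Prss58 1.84, Prss36 1.66, Prss52 1.26 and Prss12 1.18. In the heat map of levels some genes lay at a like level in all 9 testes, and others changed from left to right to differing degrees. Genes with few counts, such as Prss8 and Prss53, varied without that order.

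**Figure D1:**
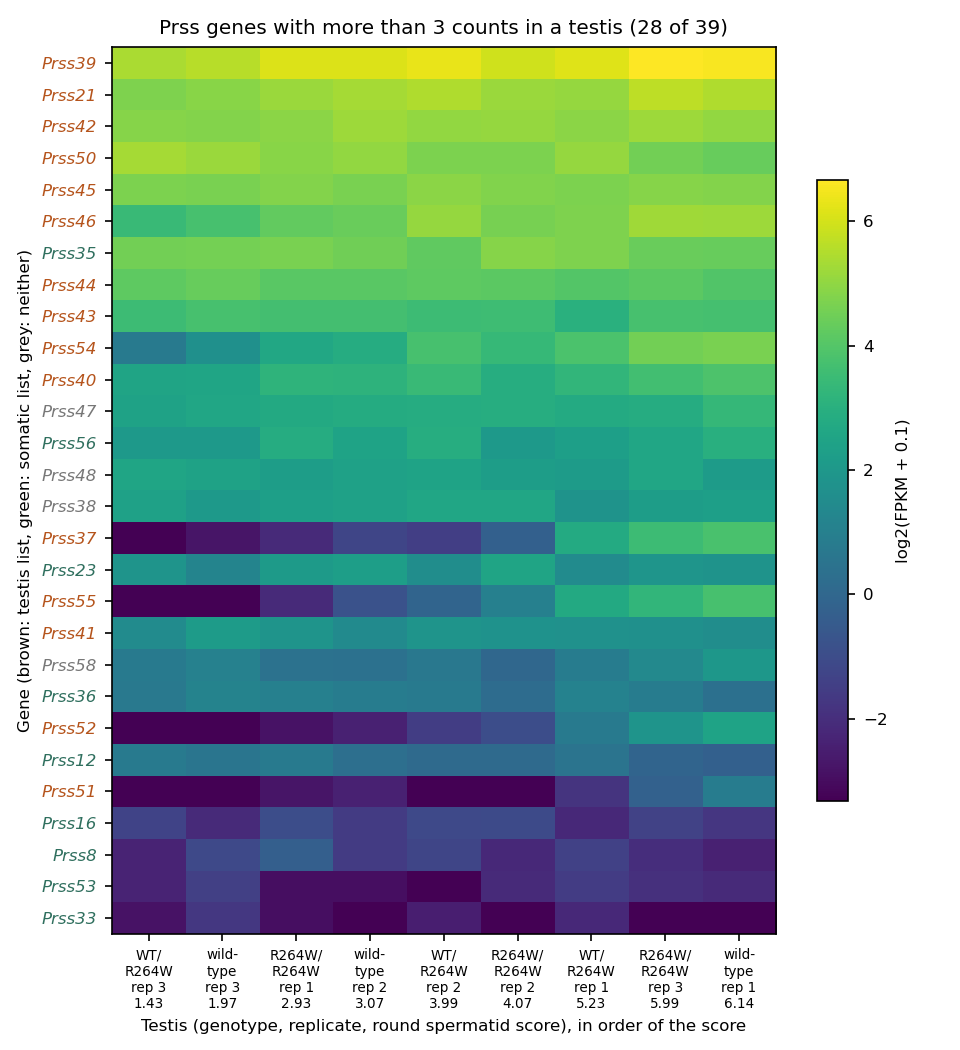
Level of the 28 Prss genes with more than 3 counts in a testis, as log2(FPKM + 0.1), 1 row per gene in order of mean level and 1 column per testis in order of the round spermatid score. Prss39 is at the top with a mean of 71.5 FPKM, and Prss37, Prss55, Prss52 and Prss51 are dark on the left and bright on the right.

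The level of each gene was fitted on the score with the genotype as a covariate, and 24 Prss genes passed the filter on low counts. By quasi-likelihood tests in edgeR, with p-values adjusted after Benjamini and Hochberg over all 15771 genes tested, 9 rose with the score, beside 17.7% of all genes, 1 fell, beside 8.79% of all genes, and 14 did not pass. Of the 15 testis paralogs 14 were tested, and 8 of them rose and 1 fell. Of the 20 somatic genes 6 were tested, and none rose or fell in this edgeR fit or by DESeq2. Prss12 alone among them had an unadjusted p under 0.05 in this fit. In the 21 alternative analyses Prss12 fell in 5 and Prss56 rose in 3. Of the 4 genes on neither list 1, Prss47, rose. The median slope of the Prss genes tested was 0.07 log2 units per unit of score (0.20 for the testis list and -0.03 for the somatic list), against -0.01 for all genes tested. The genes that passed the filter are not all members, since a gene at 0 in most testes passes only through those where it is high.

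Prss37, Prss55 and Prss52 were nearly absent from the testes at the bottom of the score and well counted at the top. They passed the filter on low counts only through the testes where they were high, so their p-values add no support beyond the levels listed. With at least 10 counts required in every library they were not tested. Prss37 encodes a protease relative without a complete catalytic triad that is needed for ADAM3 processing and male fertility. Its level in the 9 testes was 0, 0.0482, 0.134, 0.343, 0.279, 0.773, 7.30, 13.0 and 16.1 CPM. The 3 testes with the highest scores, 1 of each genotype, stood apart from the other 6, which stayed under 1 CPM. The slope of Prss37 was 2.13 ± 0.12 (SE) log2 units per unit of score (adjusted p = 1.34e-08, edgeR quasi-likelihood). Its level in the testis with the highest score was at least 102-fold that in the testis with the lowest, where it had 0 counts. This bound and those that follow set the lowest testis at 3 counts, or 0.158 CPM.

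Prss55 encodes a membrane-anchored sperm protease that is likewise needed for ADAM3 processing. Its level was 0, 0, 0.134, 0.490, 0.894, 2.03, 6.86, 10.5 and 15.4 CPM, an unbroken rise along the score apart from the tie at 0. The slope was 1.78 ± 0.12 (SE, adjusted p = 9.79e-08, edgeR quasi-likelihood) and the highest testis was at least 97.8-fold above the lowest. Prss52, a testicular protease gene of the same cluster, read 0, 0, 0.0447, 0.0980, 0.279, 0.448, 1.75, 4.01 and 6.38 CPM, also in the order of the score. Its slope was 1.94 ± 0.12 (SE, adjusted p = 4.02e-08, edgeR quasi-likelihood), with an at least 40.5-fold difference between the ends. Prss51 lies between them and was counted in 5 of the 9 testes, with 34 counts in the testis with the highest score, 9 in the next and at most 4 elsewhere. It did not pass the filter on low counts, and the highest testis was at least 10.04-fold above the lowest. Prss55 (chr14:64075438-64090162, minus strand) and Prss51 (chr14:64086234-64097678, plus strand) overlap, and whether the counting used strand is not given in the sources used here, so that reads of the shared stretch cannot be told apart, and the counts of Prss51 are uncertain for that reason. Prss52 (chr14:64104286-64113755, plus strand) overlaps the antisense gene model Gm17116 in the same way. Coordinates are those of GRCm38.

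Prss54, whose product lies in the acrosome, differed from these in being counted in every testis. Its level was 2.31, 4.48, 9.16, 10.6, 19.8, 15.1, 20.7, 35.8 and 40.1 CPM. Only Piwil4 WT/R264W replicate 2 was out of order, above Piwil4 R264W/R264W replicate 2. The slope was 0.72 ± 0.06 (SE, adjusted p = 9.73e-07, edgeR quasi-likelihood), and the lowest testis had 5.77% of the level of the highest (95% interval from 4.16% to 7.81%, exact binomial and for counting error only).

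**Figure D2:**
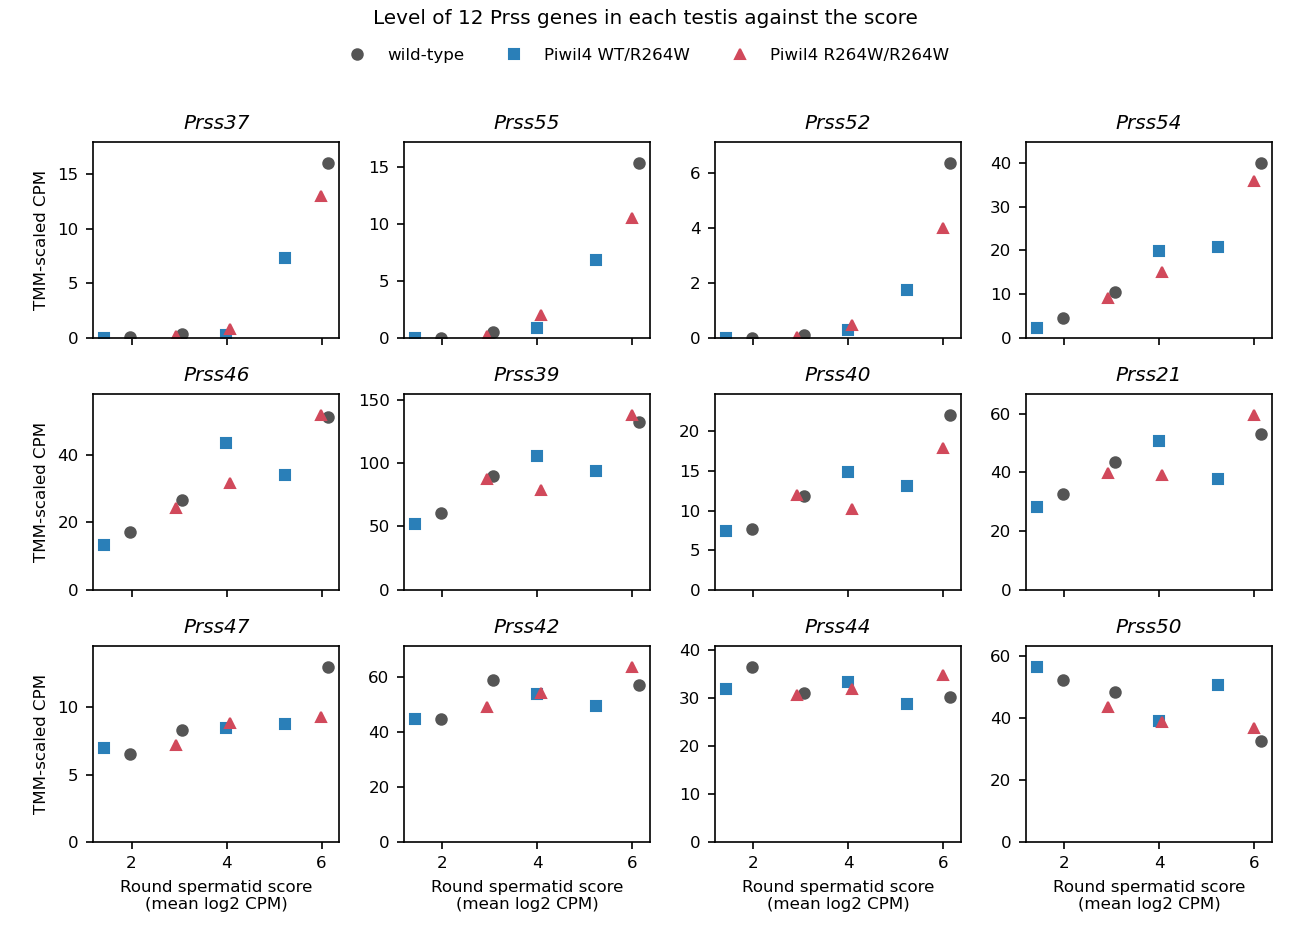
Level in TMM-scaled CPM (vertical axis, from 0) of 12 Prss genes in each of the 9 testes against the round spermatid score (horizontal axis, mean log2 CPM); 1 point is 1 testis and its shape and colour give the genotype. Prss37, Prss55 and Prss52 stay low up to a score of about 4 and reach 16.1, 15.4 and 6.38 CPM, while Prss44 varies between 28.9 and 36.6 CPM and Prss50 falls from 56.5 to 32.4 CPM.

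The acrosomal protease genes of chromosome 1, Prss39 (chr1:34498410-34503063, plus strand) and Prss40 (chr1:34543968-34560943, minus strand), rose together. Prss39 read 52.0, 60.8, 87.8, 89.5, 106, 79.0, 93.7, 138 and 132 CPM, and Prss40 read 7.46, 7.71, 12.03, 11.8, 14.9, 10.2, 13.1, 17.9 and 22.1 CPM. Both genes were lowest in the 2 testes at the bottom of the score and highest in the 2 at the top, and in both Piwil4 R264W/R264W replicate 2 lay under testes with a lower score. The slope was 0.25 ± 0.04 (SE) for Prss39 and 0.28 ± 0.05 for Prss40 (adjusted p = 0.000222 and 0.000548, edgeR quasi-likelihood). The lowest testis had 39.3% of the level of the highest for Prss39 and 33.7% for Prss40. Prss40 overlaps Cfc1 on the opposite strand.

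Prss21 read 28.3, 32.7, 39.7, 43.7, 50.7, 39.2, 37.9, 59.7 and 53.1 CPM, with a slope of 0.16 ± 0.04 (SE, adjusted p = 0.00804, edgeR quasi-likelihood). Prss47, on neither list, read 6.99, 6.51, 7.20, 8.33, 8.49, 8.87, 8.74, 9.33 and 13.0 CPM. Its slope was 0.16 ± 0.04 (SE, adjusted p = 0.0105, edgeR quasi-likelihood). Without wild-type replicate 1, the testis at 13.0 CPM, the slope was 0.11 and the call was lost (adjusted p = 0.182, edgeR quasi-likelihood). Prss58 read 1.58, 1.93, 1.25, 1.23, 1.51, 0.895, 1.70, 2.63 and 4.14 CPM and did not pass (slope 0.25 ± 0.09, SE, adjusted p = 0.0631, edgeR quasi-likelihood). Its 2 highest values were in the 2 testes at the top of the score. It passed in 4 of the 21 alternative analyses, with adjusted p from 0.0374 to 0.5002 over all of them, and its slope was 0.14 without wild-type replicate 1. Within each genotype 5 of the tested genes (Prss37, Prss47, Prss52, Prss54 and Prss55) lay in the order of the score, beside 7.19% of all genes tested. Prss37, Prss52 and Prss55 were tested only because they were high in some testes, so their order adds no support. None of the Prss genes tested lay in the reverse order, beside 3.15% of all genes. This is a count of orders over 3 testes a genotype and not a p-value.

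Some calls were lost with fewer testes. Without wild-type replicate 1 and Piwil4 WT/R264W replicate 3, the 2 testes farthest from the median score, only Prss37, Prss52, Prss54 and Prss55 rose. Of these, Prss37, Prss52 and Prss55 passed the filter on low counts only through the testes where they were high, so their calls add no support. Without these 2 testes the adjusted p was 0.0657 for Prss46, 0.128 for Prss39, 0.278 for Prss40, 0.330 for Prss21 and 0.459 for Prss47 (edgeR quasi-likelihood). Their slopes kept the direction, at 0.30 for Prss46, 0.21 for Prss39, 0.20 for Prss40, 0.16 for Prss21 and 0.12 for Prss47.

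The cluster of 6 testis paralogs on chromosome 9, all on the plus strand and each at most 3 coding genes from the next, held genes that rose, fell and did not pass. In order they are Prss42, Prss44, Prss43, Prss45, Prss46 and Prss50, from chr9:110798166-110803754 to chr9:110857967-110864629. Prss42 and Prss43 are membrane-anchored proteases of spermatocytes that are linked to progress through meiosis, and Prss50 (also called Tsp50) has an altered catalytic site. Prss46 read 13.2, 17.1, 24.2, 26.7, 43.5, 31.5, 34.1, 51.9 and 51.3 CPM and rose, with a slope of 0.37 ± 0.05 (SE, adjusted p = 5.26e-05, edgeR quasi-likelihood). The testis with the lowest score had 25.8% of the level in the testis with the highest.

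Prss50, the next gene on the strand, read 56.5, 52.3, 43.6, 48.3, 39.0, 38.5, 50.5, 36.8 and 32.4 CPM. It was the only Prss gene that fell, with a slope of -0.11 ± 0.03 (SE, adjusted p = 0.0241, edgeR quasi-likelihood), and Piwil4 WT/R264W replicate 1 lay above testes with a lower score. The call was lost in 6 of 21 alternative analyses, with adjusted p between 0.000603 and 0.852 over all of them. Leaving out wild-type replicate 1, wild-type replicate 3, Piwil4 WT/R264W replicate 3 or Piwil4 R264W/R264W replicate 1 ended it, with adjusted p of 0.257, 0.0921, 0.0709 and 0.0518 (edgeR quasi-likelihood). The slope was -0.07 without the first of these, and -0.10, -0.12 and -0.11 without the others. Without the 2 testes farthest from the median score it was -0.03. The direction was negative in each of the 21.

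The other genes of the cluster did not pass. Prss42 lay between 44.5 and 63.6 CPM (slope 0.07 ± 0.03, SE, adjusted p = 0.0685, edgeR quasi-likelihood) and Prss45 between 30.6 and 38.8 CPM (slope 0.06 ± 0.03, SE, adjusted p = 0.104). Prss42 rose in 6 of the 21 alternatives, DESeq2 among them, and Prss45 in 2. Prss44 lay between 28.9 and 36.6 CPM and Prss43 between 19.1 and 33.8 CPM, with slopes of -0.0192 ± 0.0274 and -0.0021 ± 0.0348 (SE, adjusted p = 0.631 and 0.973). Prss41, a related membrane-anchored protease gene on chromosome 17, lay between 3.77 and 6.22 CPM and did not pass either (slope -0.01 ± 0.05, SE, adjusted p = 0.892).

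Neighbours in the clusters were also compared within each testis, as the log2 ratio of their CPM (prior count 1), in 9 pairs of adjacent tested members. From the testis with the lowest score to that with the highest, the log2 ratio of Prss46 to Prss45 went from -1.22 to 0.42. Over the 9 testes it followed the score with Pearson's r = 0.95 (exact permutation p = 9.369e-05, adjusted over the 9 pairs 0.000843) and Spearman's rho = 0.93 (exact permutation p = 0.00075, adjusted 0.0059), and r was 0.92 without the 2 farthest testes. The ratio of Prss50 to Prss46 went the other way, from 2.09 to -0.66. Its r was -0.92 (exact permutation p = 0.000973, adjusted 0.00438) and its rho -0.92 (exact permutation p = 0.00131, adjusted 0.0059), with r of -0.83 without the 2 farthest. These 2 ratios share Prss46, which had already been called as rising on the same score in these testes. Their p-values therefore restate that call and give no separate support. All 9 pairs were compared after the slopes had been seen. Prss44 to Prss42 passed by r = -0.75 (exact permutation p = 0.0157, adjusted 0.047) but not by rho = -0.73 (exact permutation p = 0.0311, adjusted 0.083). Its r was -0.64 without the 2 farthest. The other 6 pairs passed by neither, among them Prss40 to Prss39 (r = 0.36, exact permutation p adjusted 0.466) and Prss52 to Prss55 (r = -0.63, exact permutation p adjusted 0.125). Prss52 and Prss55 both had 0 counts in the 2 testes with the lowest scores, where the prior count sets their ratio. Tests were two-sided.

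To show the sequence beside these courses, the 250 bases before the RefSeq start (GRCm38.p6) of Prss37, the gene with the steepest slope, and of the adjacent Prss45, Prss46 and Prss50 are printed 5′ to 3′ on the strand of the gene. Capitals mark, on either strand, GTTGCC (part of the X-box that RFX factors of germ cells bind) or TAACNG (the core bound by MYB factors, of which MYBL1 acts in pachytene spermatocytes). The windows are chr6:40519509-40519758 (minus strand), chr9:110834338-110834587, chr9:110844256-110844505 and chr9:110857717-110857966 (plus strand).
Prss37: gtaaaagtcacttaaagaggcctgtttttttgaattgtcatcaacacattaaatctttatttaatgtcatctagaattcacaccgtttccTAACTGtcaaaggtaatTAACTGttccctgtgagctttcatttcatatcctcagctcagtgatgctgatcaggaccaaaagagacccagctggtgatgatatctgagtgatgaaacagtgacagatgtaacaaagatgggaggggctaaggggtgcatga
Prss45: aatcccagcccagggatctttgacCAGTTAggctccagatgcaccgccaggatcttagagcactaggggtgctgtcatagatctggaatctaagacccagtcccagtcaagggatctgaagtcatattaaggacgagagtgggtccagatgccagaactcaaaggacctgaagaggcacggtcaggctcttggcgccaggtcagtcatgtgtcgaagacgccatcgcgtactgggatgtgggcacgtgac
Prss46: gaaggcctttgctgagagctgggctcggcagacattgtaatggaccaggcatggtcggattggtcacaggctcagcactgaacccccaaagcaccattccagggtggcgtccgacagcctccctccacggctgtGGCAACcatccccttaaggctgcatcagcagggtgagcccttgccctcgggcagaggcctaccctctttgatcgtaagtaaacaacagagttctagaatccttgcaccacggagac
Prss50: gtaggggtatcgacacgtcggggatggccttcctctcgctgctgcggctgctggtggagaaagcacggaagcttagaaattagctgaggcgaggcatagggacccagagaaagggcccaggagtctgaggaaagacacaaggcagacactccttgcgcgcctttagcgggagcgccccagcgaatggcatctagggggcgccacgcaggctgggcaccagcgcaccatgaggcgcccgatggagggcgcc

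Prss37 held TAACNG at 143 and 160 bases before the start, Prss45 held it at 226, Prss46 held GTTGCC at 116 and these letters are not in the Prss50 window. RefSeq entries were matched for 29 of the 39 Prss genes, with 36 windows. TAACNG was in 6 of the 36 (Prss23, Prss28, Prss29, Prss37, Prss45 and Prss54), beside 19.8% of all 32851 promoters, and GTTGCC in 3 (Prss21, Prss46 and Prss47), beside 10.4%. TGACGTCA, the cyclic AMP response element that CREM binds in spermatids, was in none, beside 1.5% of all promoters. Its part TGACGT, which is counted wherever the full element occurs, was in 2 (Prss28 and Prss29), beside 6.5%. No entry was matched for Prss8, Prss16, Prss22, Prss43, Prss44, Prss48, Prss51, Prss52, Prss55 and Prss57. A match is a description of letters and not a bound site.

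**Figure D3:**
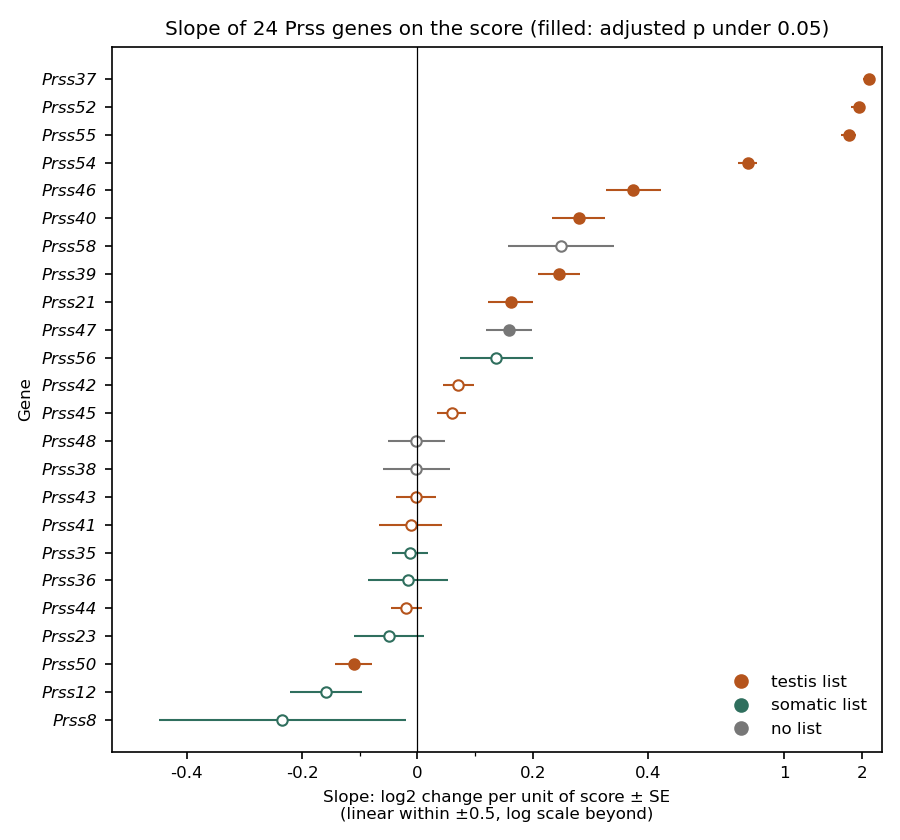
Slope on the round spermatid score of the 24 Prss genes tested, in log2 units per unit of score with SE as bars (9 testes, edgeR); the horizontal axis is linear within ±0.5 and logarithmic beyond, and filled points have an adjusted p under 0.05. Prss37, Prss52 and Prss55 lie far right at 2.13, 1.94 and 1.78, and Prss50 is the only filled point left of 0, at -0.11.

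None of the 6 somatic genes tested passed the threshold on the score. Prss35 lay between 63.2 and 96.3 CPM, with a slope of -0.01 ± 0.03 (SE, adjusted p = 0.793, edgeR quasi-likelihood). Prss56, known from eye growth, lay between 8.77 and 18.7 CPM with a slope of 0.14 ± 0.06 (SE, adjusted p = 0.129), and it rose in 3 of the 21 alternatives. Prss36 lay between 1.99 and 3.41 CPM, with a slope of -0.02 ± 0.07 (SE, adjusted p = 0.886). Prss12 encodes neurotrypsin, which cuts agrin at synapses, and overlaps Gm43590 on the same strand and Gm35065 on the opposite strand. It read 4.05, 3.62, 4.16, 3.09, 2.68, 2.60, 3.58, 2.35 and 2.10 CPM, with a slope of -0.16 ± 0.06 (SE, adjusted p = 0.0755, edgeR quasi-likelihood), and it passed in 5 of the 21 alternatives, with adjusted p from 0.0162 to 0.524 over all of them.

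Prss23, a secreted protease gene known from ovarian tissue, had a slope of -0.05 ± 0.06 (SE, adjusted p = 0.568, edgeR quasi-likelihood). Prss8 encodes prostasin, an activator of the epithelial sodium channel, and had at most 30 counts in a testis. Prss8 overlaps Kat8 on the opposite strand, so its counts are uncertain. Its slope was -0.23 ± 0.21 (SE, adjusted p = 0.440), which became -0.0068 without Piwil4 R264W/R264W replicate 1, the library with the 30 counts, and -0.56 without Piwil4 WT/R264W replicate 3. On neither list, Prss38 and Prss48 lay between 4.26 and 7.65 CPM and between 4.26 and 6.06 CPM with slopes near 0. Prss38 overlaps Gm15755 and Prss48 overlaps Sh3d19, each on the opposite strand.

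The remaining somatic genes were near or under the limit of counting. Prss16, known from thymic epithelium, had between 5 and 13 counts, Prss53 at most 11 and Prss33 at most 6. Prss53 shares 76.2% of its 50-base stretches with the overlapping model Gm21974, so its counts are uncertain. Prss22, Prss30, Prss32, Prss34 and Prss57 had at most 3 counts in any testis. The pancreatic trypsinogen genes Prss1, Prss2 and Prss3 had 0 counts in all 9 testes, as had Prss27 and the implantation protease genes Prss28 and Prss29. Of the 50-base stretches of Prss3 and Prss1, 66.1% and 54.9% also occur in other trypsinogen genes. Levels of marker genes of the cells that carry such proteases were low in the same libraries. The summed CPM of 7 pancreatic acinar genes lay between 0.269 and 1.20 with 2 of the 7 at 0 throughout, that of 7 mast cell genes between 0.134 and 0.578 with 3 of 7 at 0, and that of 7 neutrophil genes between 1.14 and 3.21 with 4 of 7 at 0.

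Between genotypes no Prss gene passed. For Piwil4 R264W/R264W against wild-type, 22 Prss genes were tested and 0 passed an adjusted p under 0.05 by edgeR's quasi-likelihood test, beside 0.0% of the 15543 genes tested. None had an unadjusted p under 0.05, beside 1.26% of all genes, and none had groups that did not overlap, beside 5.68% of all genes. DESeq2 also called 0, with 0 at an unadjusted p under 0.05. The median log2 fold change of the Prss genes tested was 0.02, against -0.01 for all genes, 11 were above 0 and 11 below, and they ranged from -0.63 ± 0.58 (SE) for Prss58 to 0.33 ± 0.27 for Prss23.

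The precision differed much between the genes. Prss35, at 77.2 ± 3.17 CPM in wild-type and 85.1 ± 10.8 CPM in Piwil4 R264W/R264W testes (SD, n = 3), had a log2 fold change of 0.14 ± 0.11 (SE). For the genes that followed the score most closely the 3 testes of a genotype lay far apart. Prss37 averaged 5.48 ± 9.16 CPM in wild-type, 2.53 ± 4.14 CPM in Piwil4 WT/R264W and 4.65 ± 7.28 CPM in Piwil4 R264W/R264W testes (SD, n = 3 each), and its log2 fold change in Piwil4 R264W/R264W against wild-type was -0.26 ± 1.96 (SE). A difference of several-fold in Prss37 or Prss55 was not detectable with this spread.

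For Piwil4 R264W/R264W against Piwil4 WT/R264W, 23 Prss genes were tested and 0 passed an adjusted p under 0.05 by edgeR, beside 0.0% of 15463 genes. The count at an unadjusted p under 0.05 was 1, beside 2.22% of all genes, and 2 had groups that did not overlap, beside 7.15%. DESeq2 called 0, with 1 at an unadjusted p under 0.05. The median log2 fold change was 0.15, against 0.01 for all genes, and 19 of the 23 were above 0, from -0.29 ± 0.15 (SE) for Prss50 to 0.84 ± 1.83 for Prss37. The median was -0.0055 without Piwil4 R264W/R264W replicate 3 and 0.0303 with the score as a covariate over all 9 testes. Prss23 was the gene past the unadjusted p. It read 8.99, 8.38 and 6.98 CPM in Piwil4 R264W/R264W replicates 1, 2 and 3 and 5.69, 5.03 and 6.78 CPM in Piwil4 WT/R264W replicates 1, 2 and 3. All 3 of the former lay above all 3 of the latter, by 0.48 ± 0.18 (SE) on the log2 scale (adjusted p = 0.948, edgeR quasi-likelihood). Wild-type testes read 5.96, 8.87 and 4.48 CPM and overlapped both groups. Prss23 overlaps the antisense gene Prss23os.

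For Piwil4 WT/R264W against wild-type, 21 Prss genes were tested and 0 passed an adjusted p under 0.05 by edgeR, beside 0.0% of 15413 genes. Again 1 had an unadjusted p under 0.05, beside 1.11% of all genes, and 1 had groups that did not overlap, beside 5.31%. DESeq2 called 0, with 1 at an unadjusted p under 0.05. The median log2 fold change was -0.14, against -0.02 for all genes, 17 of 21 were below 0, and the range went from -1.03 ± 1.95 (SE) for Prss55 to 0.23 ± 0.28 for Prss12. The median was 0.0234 without wild-type replicate 1 and -0.3482 without wild-type replicate 3, and with the score as a covariate it was -0.0805.

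The gene that passed the unadjusted p and did not overlap was Prss43. It read 33.8, 30.0 and 31.7 CPM in wild-type replicates 1, 2 and 3, 19.1, 27.4 and 26.1 CPM in Piwil4 WT/R264W, and 29.8, 27.9 and 33.6 CPM in Piwil4 R264W/R264W testes. The Piwil4 WT/R264W values were the 3 lowest of the 9, and the wild-type and Piwil4 R264W/R264W values overlapped. The log2 fold change was -0.40 ± 0.16 (SE) against wild-type (adjusted p = 0.9998, edgeR quasi-likelihood), and Piwil4 R264W/R264W lay 0.33 ± 0.16 above Piwil4 WT/R264W (adjusted p = 0.948). Leaving out each library in turn gave between -0.4841 and -0.2531 for the former and between 0.1898 and 0.4292 for the latter, both nearest 0 without Piwil4 WT/R264W replicate 1. With the score as a covariate over all 9 testes the difference from wild-type was -0.40 ± 0.13 (SE, adjusted p = 0.958, edgeR quasi-likelihood). These comparisons share the Piwil4 WT/R264W libraries, and 3 values against 3 cannot give an exact permutation p below 0.1.

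**Figure D4:**
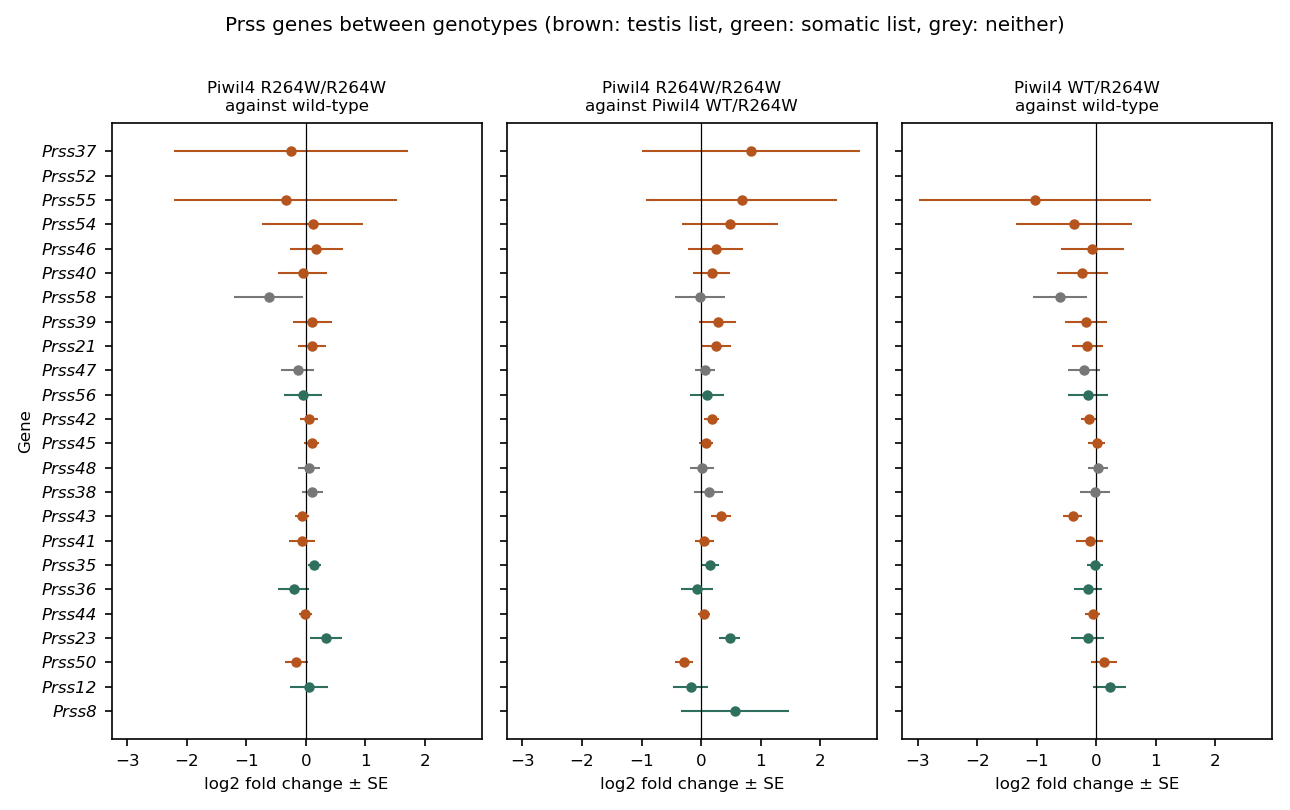
Log2 fold change with SE as bars of each Prss gene in the 3 comparisons of genotypes (edgeR, 3 testes a group), with the genes in the order of their slope on the score; a gene without a point did not pass the filter on low counts in that comparison. The bars are widest for Prss37 and Prss55, at the top, and narrow for genes such as Prss44 and Prss35, and Prss43 lies at -0.40 in the right panel.

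Proteases and partners outside the family were counted in the same fit. Their counts stand beside the 17.7% of all genes that rose and the 8.79% that fell. Of 10 tested genes for other trypsin-fold proteases 2 rose, near the share of all genes, and none fell. The 2 were Acr, the acrosomal protease acrosin (slope 0.18 ± 0.03, SE, adjusted p = 0.000283, edgeR quasi-likelihood), and Tmprss6 (0.59 ± 0.18, adjusted p = 0.031), which stayed under 1 CPM. Plau and St14 did not pass, with slopes of -0.15 ± 0.08 and -0.23 ± 0.13 (SE, adjusted p = 0.192 and 0.221). Of 16 genes for ADAM3 maturation and sperm migration 9 rose and 1 fell. Pdilt, a chaperone gene needed for ADAM3, rose from 3.89 to 96.98 CPM between the ends of the score (slope 0.88 ± 0.04, SE, adjusted p = 2.29e-09, edgeR quasi-likelihood) and Adam1a from 6.99 to 99.1 CPM (0.76 ± 0.04, adjusted p = 3.17e-09). Tex101 fell from 445 to 309 CPM (slope -0.08 ± 0.02, SE, adjusted p = 0.0144), and Tpst2 did not pass (-0.04 ± 0.03, adjusted p = 0.426). These 4 genes were already counted in the testis with the lowest score, where Prss37 and Prss55 had 0 counts.

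Of 11 tested genes for inhibitors of serine proteases 3 rose and 1 fell. Acrbp, whose product binds proacrosin, rose from 187 to 327 CPM (slope 0.15 ± 0.03, SE, adjusted p = 0.00114, edgeR quasi-likelihood), and A2m from 0.578 to 3.07 CPM (0.49 ± 0.12, adjusted p = 0.00914). Spint2, which encodes a membrane inhibitor of trypsin-like proteases, fell from 127 to 91.8 CPM (slope -0.09 ± 0.02, SE, adjusted p = 0.00331), and Serpine2 did not pass (-0.15 ± 0.05, adjusted p = 0.0583). The protease-activated receptor genes F2r and F2rl3 had slopes of -0.05 ± 0.06 and -0.14 ± 0.16 (SE, adjusted p = 0.539 and 0.550).

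Marker genes of cell types were counted on the score in the same way, beside the same 17.7% and 8.79% of all genes. All 20 of the genes that make the score rose with it, which its construction gives. Of 14 pachytene spermatocyte genes 7 rose and 1 fell, of 10 leptotene and zygotene genes none rose and 7 fell, and of 11 spermatogonial genes 2 rose and 2 fell. The spermatogonial counts lie near the shares of all genes, as do those of Leydig cells and macrophages. Among somatic cells 1 of 14 Sertoli genes rose and 4 fell, 2 of 8 Leydig genes rose, 1 of 7 macrophage genes rose and none of 6 peritubular myoid genes passed. The summed CPM of the leptotene and zygotene genes lay between 1062 and 1421 in wild-type, 1165 and 1452 in Piwil4 WT/R264W and 1003 and 1363 in Piwil4 R264W/R264W testes. That of 8 epididymal genes, of which 1 of 3 tested rose and 2 were at 0 throughout, lay between 6.70 and 28.8, 5.73 and 17.9, and 10.7 and 55.2. Tex101 and Rnase10 of the ADAM3 list are also among the leptotene and zygotene and the epididymal genes, and Tmprss12 is counted with the other trypsin-fold proteases as well. The part of these cell types in the slopes of the Prss genes was not tested.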

How the data were processed

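Each of the 9 whole-testis RNA sequencing libraries took its genotype and number from its label, and table columns carry the same names. The authors filtered reads with fastp (version 0.18.0) and assembled them with StringTie (version 1.3.1); the submitters' processing notes name these tools, DESeq2 and the build mm39. The aligner, annotation and counting tool are not given in the sources used here. The deposited table holds an estimated count per gene and library, not scaled for depth, of which 89.2% were whole, and an FPKM value that the authors computed per transcript length and depth.

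Estimated counts were rounded. Fits used edgeR (version 4.0.16, under R version 4.3.3) with filterByExpr, TMM scaling and two-sided quasi-likelihood tests, on each pair of genotypes and on all 9 libraries with genotype and score (prior count 1), with Benjamini-Hochberg adjustment over all genes at 0.05. No 2 libraries of a group agreed within sampling noise. The fits were tested on simulated data. For Piwil4 R264W/R264W against wild-type, 24 of 100 genes with a simulated log2 change of 1 were recovered, so most were missed. With a change of 2, 71 of 100 were recovered. For the slope on the score, 71 of 100 genes were recovered at 0.25 log2 units per unit of score and 87 of 100 at 0.5. DESeq2 (version 1.42.0) and limma (version 3.58.1) were alternatives, as were other size factors, filters, pseudocounts, score gene sets, a replicate block, all libraries in one fit and each library left out. Intervals at 95% are exact binomial. Gene models came from the GENCODE annotation of GRCm38, matched by gene ID for 39 of 39 Prss genes, and promoters from RefSeq.

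The Prss genes and the gene lists were chosen with earlier results of these data known. Every Prss gene was accounted for. Statistics were given between genotypes for genes past an unadjusted p of 0.05 or without overlap, and on the score for the 10 largest positive and 5 largest negative slopes and every gene called; others were named after their values were seen. From the lists of other proteases, inhibitors, ADAM3 factors and receptors, the 2 genes of smallest p in each direction were named. The ratios of neighbours were added after the values were seen, as were their leave-outs.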

Additional observations from a re-analysis of the deposited data

How the results depend on the processing

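In each comparison of genotypes the count of Prss genes called stayed at 0 under all 15 alternatives. Leaving out each library in turn moved their median log2 fold change between -0.0055 (without Piwil4 R264W/R264W replicate 3) and 0.3015 for Piwil4 R264W/R264W against Piwil4 WT/R264W, and between -0.3482 (without wild-type replicate 3) and 0.0234 (without wild-type replicate 1) for Piwil4 WT/R264W against wild-type. The count of genes that rose with the score, 9, was 4 without the 2 testes farthest from the median score, 12 with a pachytene score, 11 with DESeq2 and between 8 and 13 with a library left out. With at least 10 counts required in every library, 7 of 20 genes tested rose, and Prss37, Prss52 and Prss55 were not tested. The count that fell, 1, was 2 with limma on log2(FPKM + 0.1) and on log2(FPKM + 1), 2 with a pachytene score, 0 with a score of 4 transition protein and protamine genes, 0 without the 2 farthest testes, and between 0 and 2 with a library left out: 0 without wild-type replicate 1 or 3, Piwil4 WT/R264W replicate 3 or Piwil4 R264W/R264W replicate 1, and 2 without Piwil4 WT/R264W replicate 1. The cause was not tested. The slope of Prss23 was 0.0083 without the 2 farthest testes, and that of Prss44 was 0.0076 without them and between -0.0393 and 0.0006 (without wild-type replicate 3) with a library left out. With a library left out, r lay between -0.1636 and 0.5842 for Prss40 to Prss39, -0.0365 and 0.6388 for Prss36 to Prss8, and -0.1588 and 0.6487 for Prss43 to Prss44, each lowest and below 0 without wild-type replicate 1, and the last was -0.3019 without the 2 farthest testes.

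Libraries with the same replicate number in different genotypes deviated together in some pairs and apart in others (r of their deviations between -0.73 and 0.78). These deviations also hold the differences in the first wave, so they do not show whether the numbers pair the libraries. With the replicate block in place of genotype, 10 genes rose and 2 fell, and the slope of Prss44 was 0.0067. The slope was then 1.94 for Prss37, under 2.14 for Prss52 and 2.04 for Prss55. With limma on log2(FPKM + 0.1) it was 1.61 for Prss37 and 1.62 for Prss55, and on log2(FPKM + 1) it was 0.91 and 0.89. With the replicate block between genotypes 0 Prss genes were called.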
